A study of Mus musculus with 49 samples.

Results

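The maternal code HFD was set against the maternal code CD in mouse hippocampus, with both offspring codes pooled. All 17 libraries of HFD-C and HFD-F stood on one side and all 16 libraries of CD-C and CD-F on the other, 33 of the 49 libraries of the series, chosen by their group labels alone. HFD-C held 9 libraries and HFD-F 8, against 8 each in CD-C and CD-F. Every animal was of the inbred strain C57BLKS/J and 3 months old, and according to the series' design text each library is 1 mouse. By the series title, which concerns obesity of the mother and its offspring, HFD and CD were taken as the dam's diet and C and F as the offspring's own diet, which no label states in words. Titles mark each animal as XX or XY, and every group holds 4 XX animals.

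A high-fat diet in the mother exposes the fetus and the suckling pup to altered lipids, hormones and inflammatory signals, and in rodents it has been tied to changed learning and social behaviour of the offspring. The hippocampus relays information from the dentate gyrus through CA3 to CA1 and serves spatial and episodic memory. Its glutamatergic principal cells are held in check by GABAergic interneurons, and it responds to insulin, growth factors and glucocorticoids.

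The values are FPKM, fragment counts scaled by transcript length and library size, which are comparable between genes per length; read depth is unknown. The XX and XY marks matched the sex-linked genes in all 33 libraries: Xist, which silences an X chromosome, ran from 43.0 to 183 FPKM in XX and from 0 to 0.242 in XY, and the Y-linked Eif2s3y from 0 to 1.21 in XX and from 156 to 726 in XY. Neuronal markers were present in every library, with summed pan-neuronal markers between 8993 and 13060 FPKM in HFD and between 9068 and 12568 in CD. Summed markers of dentate granule cells, a hippocampal cell type, lay between 253 and 612 FPKM in HFD and between 281 and 588 in CD. Markers of tissue that borders the hippocampus varied more: the choroid plexus list summed to between 139 and 13520 FPKM in HFD and between 219 and 24915 in CD. Sample titles begin with a prefix, 6 in HFD and 7 in CD, which may mark a litter or dam, although no label states it. Each prefix lies within a maternal code, and 3 of the HFD prefixes hold both offspring codes, against 0 of the CD prefixes. In HFD-F every XX library is of prefix HFD3.2 and every XY library of HFD2.2 or HFD2.5, so mark and prefix cannot be told apart there.

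No gene passed the test between HFD and CD. With offspring code and the XX or XY mark in the model, limma on log2(FPKM + 0.5) called 0 of 16035 rows at an adjusted p under 0.05, so that the background share was 0%, and the smallest adjusted p was 0.677. At an unadjusted p under 0.05 there were 1178 rows (7.35% of those tested), 661 higher in HFD (4.12%) and 517 lower (3.22%). In 0 rows (0%) did the 17 HFD libraries lie apart from the 16 CD libraries. The count at an unadjusted p under 0.05 depended on which libraries entered. Leaving out single libraries gave 858 to 1943 rows, the highest without HFD-F 8. There were 1790 without the 3 CD-F libraries of title prefix CD2.5X, 683 without the 2 of prefix CD1.5 and 664 without prefix HFD2.2. In each of these fits 0 genes passed.

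The precision of these differences was uneven across genes. The median standard error was 0.09 on the log2 scale. The 95% interval of the difference lay wholly within 0.25 of zero (18.9% on the higher side) for 45.5% of rows, within 0.5 for 83.7% and within 1 for 96.2%. A difference of 1 on the log2 scale thus lay outside the interval for nearly all rows, whereas smaller ones were often not detectable at this spread. The intervals treat each mouse as independent; whether mice of a title prefix share a dam is not stated.

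Of the genes nearest to passing with a higher level in HFD, 2 bear on glutamatergic and GABAergic neurons. Grip1, a scaffold that binds AMPA-type glutamate receptors (chr10:119453238-120087267 on GRCm38.p6, annotated protein coding), had a lowest, median and highest value of 2.18, 2.87 and 3.80 FPKM in HFD, against 1.32, 2.05 and 4.06 FPKM in CD. The ranges overlapped throughout, but 16 of 17 HFD libraries lay above the CD mean of the log2 values (log2 difference 0.34, SE 0.10; limma adjusted p = 0.677). Dlx6os1, a long noncoding RNA of the Dlx5 and Dlx6 locus of GABAergic neurons, had 13.4, 17 and 26.3 FPKM in HFD, against 10.2, 13.5 and 19.6 FPKM in CD (0.35, SE 0.09; adjusted p = 0.677 with limma). It overlaps genes on the other strand and the strand setting of the counting is not given in the sources used here, so its level is uncertain. The homeobox gene Dlx6 itself averaged 5.43 ± 2.08 FPKM in HFD and 3.84 ± 0.998 in CD, and Dlx1, which specifies interneurons, 8.25 ± 1.32 in HFD and 7.18 ± 1.31 in CD (SD, n = 17 and 16). The highest Dlx6 values were 11.8 FPKM in HFD-F 3 and 8.64 in HFD-F 6, followed by 6.69 in HFD-F 2. HFD-F 3 also gave the highest value of Dlx6os1.

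Luzp2, a leucine zipper protein gene expressed in brain (chr7:54835245-55268888), had 96.6, 127 and 149 FPKM as lowest, median and highest HFD values, against 58.4, 101 and 143 FPKM in CD. All 17 HFD libraries lay above the CD mean on the log2 scale, and the lowest CD value was that of the library CD-F 8 (log2 difference 0.37, 95% interval 0.18 to 0.56). Egfl6, a secreted matrix protein with EGF-like repeats on the X chromosome (chrX:166523007-166585716), had 10.8, 14.0 and 20.3 FPKM in HFD and 8.06, 11.4 and 14.6 FPKM in CD. Here 16 of 17 HFD libraries lay above the CD mean (0.36, 95% interval 0.18 to 0.54). Its unadjusted p was 0.000358 in limma, the smallest among the genes named as higher, and the adjusted p was again 0.677.

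**Figure D1:**
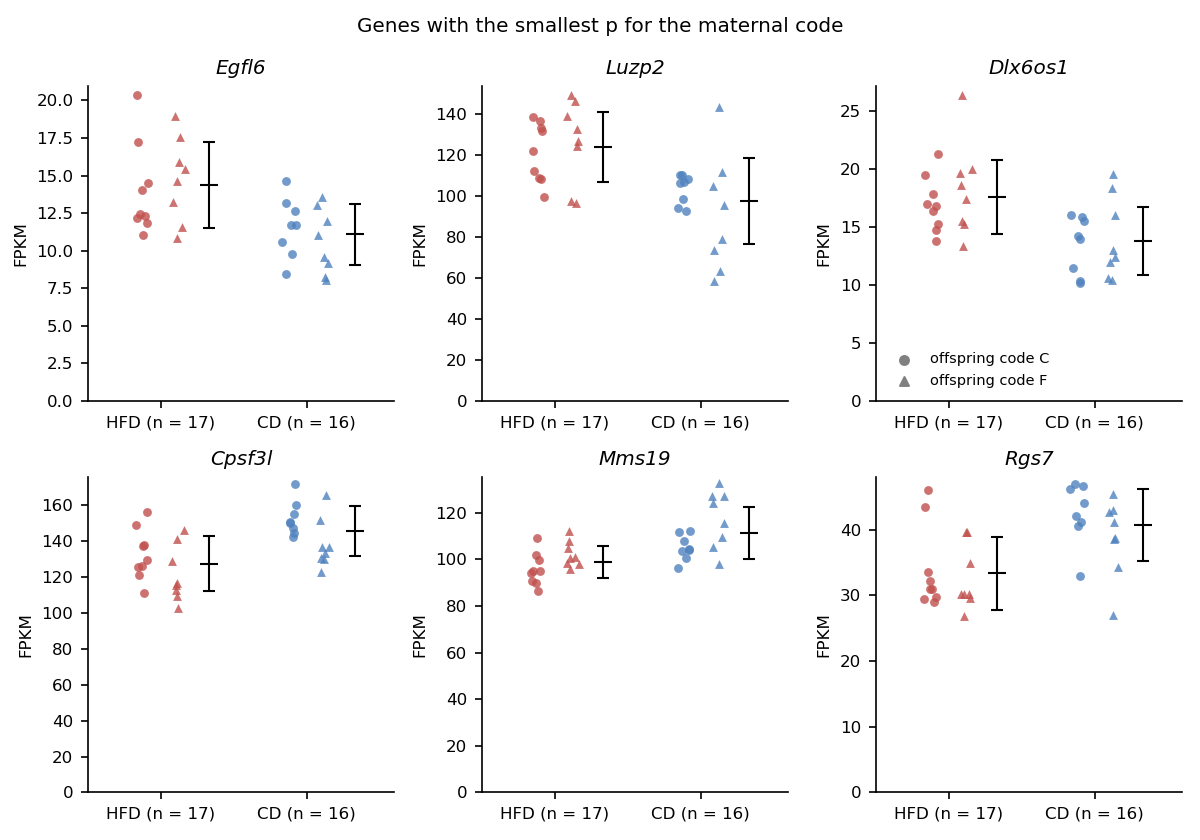
FPKM (vertical axes, from 0) of the 3 higher and 3 lower genes with the smallest p, HFD on the left (n = 17) and CD on the right (n = 16); circles are offspring code C, triangles F, and bars the mean ± SD. In each panel the ranges of HFD and CD overlap, and no gene passed adjustment over all rows.

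Igf1, the insulin-like growth factor (chr10:87858265-87937047), had 10.2, 13.2 and 16.5 FPKM in HFD and 4.93, 10.8 and 17.8 FPKM in CD. The HFD libraries lay close together, at 13.2 ± 1.81, against 10.5 ± 3.42 in CD (SD), and the CD range enclosed theirs (log2 0.38, 95% interval 0.14 to 0.61). Calcrl, the receptor for calcitonin gene-related peptide and adrenomedullin, averaged 17.6 ± 2.92 FPKM in HFD and 13.8 ± 4.05 in CD (0.39, 95% interval 0.15 to 0.63). Chpt1, an enzyme of phosphatidylcholine synthesis, averaged 37.9 ± 6.10 FPKM in HFD and 31.2 ± 9.59 in CD (0.32). The mismatch repair gene Pms1 (1.96 ± 0.301 FPKM in HFD, 1.53 ± 0.374 in CD), the Rab11-binding Wdr44 (2.54 ± 0.189 in HFD, 2.19 ± 0.327 in CD) and the immunoglobulin family member Igsf10 (3.68 ± 0.877 in HFD, 2.82 ± 0.716 in CD) complete these 10 genes. For Luzp2, Egfl6, Igf1, Calcrl, Chpt1, Pms1, Wdr44 and Igsf10 the lowest value was that of the same single library, CD-F 8. That library also had the highest slope on transcript GC (0.468), a measure described further on.

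The 10 genes nearest to passing with a lower level in HFD had small differences, 8 of them by less than 0.3 on the log2 scale. Cpsf3l, the catalytic subunit of the Integrator complex that trims small nuclear RNAs (chr4:155869547-155889103), had 103, 126 and 156 FPKM in HFD and 123, 146 and 172 FPKM in CD. Of the HFD libraries 14 of 17 lay below the CD mean (log2 −0.20, 95% interval −0.30 to −0.10; limma unadjusted p = 0.000256). Mms19, which helps insert iron-sulfur clusters into nuclear proteins (chr19:41943707-41981164), had 86.4, 98.4 and 112 FPKM in HFD and 96.4, 109 and 133 FPKM in CD, with 16 of 17 HFD libraries below the CD mean (−0.16, 95% interval −0.24 to −0.08). Both had an adjusted p of 0.677 in limma.

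Rgs7, a regulator that shortens G protein signalling in neurons (chr1:175059076-175492862), had 26.8, 31.0 and 46.0 FPKM in HFD and 27.0, 41.6 and 47.0 FPKM in CD. The 2 groups covered nearly the same range, but the HFD values gathered at its low end and the CD values at its high end (log2 −0.29, 95% interval −0.44 to −0.14). Kat7, a histone acetyltransferase, averaged 812 ± 171 FPKM in HFD and 978 ± 151 in CD (−0.29). Arl5b, a small GTPase of the Golgi, averaged 1.27 ± 0.669 FPKM in HFD and 2.21 ± 0.995 in CD (−0.58). Rbp4, the carrier of retinol, averaged 16.5 ± 5.90 FPKM in HFD and 22.1 ± 5.39 in CD (−0.46). Usp2, a deubiquitinase (38.5 ± 3.83 in HFD, 45.9 ± 8.01 in CD), Hdgfrp2 (66.4 ± 5.78 in HFD, 74.3 ± 5.47 in CD), Zfp574 (446 ± 62.6 in HFD, 517 ± 76.8 in CD) and the sorting nexin Snx15 (58.1 ± 4.22 in HFD, 64.2 ± 5.30 in CD) had differences between −0.14 and −0.24.

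Genes often measured in studies of maternal diet and cognition lay close to equal. Bdnf, the growth factor of synaptic plasticity, averaged 38.3 ± 9.33 FPKM in HFD and 36.8 ± 8.15 in CD (log2 0.05, 95% interval −0.15 to 0.24). The postsynaptic scaffold Dlg4, whose symbol stands on 2 rows and is therefore uncertain, averaged 469 ± 63.9 in HFD and 484 ± 61.8 in CD (−0.04, −0.16 to 0.08), and the vesicle protein Syp 792 ± 78.9 in HFD and 815 ± 112 in CD (−0.04, −0.16 to 0.09). For these 3 genes the interval leaves out any difference of 0.25 or more in either direction. The BDNF receptor Ntrk2 (0.04, −0.09 to 0.18), the NMDA receptor subunit Grin1 (−0.02, −0.15 to 0.12), the AMPA receptor subunit Gria1 (−0.02, −0.18 to 0.15), the glucocorticoid receptor Nr3c1 (0.07, −0.12 to 0.26) and the microglial receptor Csf1r (0.00, −0.13 to 0.13) were bounded as tightly or nearly so.

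For others the interval was wide. The activity-dependent genes Fos (log2 0.03, 95% interval −0.24 to 0.29), Arc (0.02, −0.31 to 0.36) and Npas4 (0.05, −0.23 to 0.33) and the oxytocin receptor Oxtr (0.26, −0.03 to 0.56) could differ by more than 0.25 either way or in one direction without being seen. The leptin receptor Lepr (−0.15, −0.85 to 0.55) and the microglial chemokine receptor Cx3cr1 (−0.05, −0.77 to 0.67) were bounded loosely, and the choroid plexus gene Ttr (−1.20, −3.38 to 0.98) least of the panel. In all, 33 of the 33 panel genes were tested and 0 passed in limma, with 4 at an unadjusted p under 0.05, beside 7.35% of all rows. These were Gria2, Grin2a and Grm5 with higher levels in HFD and Fkbp5 with a lower one.

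Across 54 gene lists of cell types and pathways, 0 of 810 distinct members passed over all genes in limma, and 60 (7.41%) had an unadjusted p under 0.05, 33 higher and 27 lower in HFD, beside 7.35% of all rows. The members of all lists together thus stood at the background share. The 60 became 97 without HFD-F 8, 36 without title prefix CD2.5 and 33 without prefix HFD2.2. The median log2 difference of all rows was −0.02, and list medians are given beside it. No list was tested as a set.

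Inhibitory receptors stood farthest above the background of the functional lists by median. Of 16 genes for GABA receptor subunits and their anchoring proteins, 15 had a difference above 0 and 6 an unadjusted p under 0.05, all higher in HFD, against 4.12% of all rows; the median was 0.16 and 0 passed. Gabrg1, a gamma subunit of GABA-A receptors, had 10.7, 18.7 and 29.3 FPKM as lowest, median and highest HFD values, against 6.46, 17.1 and 21.9 FPKM in CD (0.43, 95% interval 0.15 to 0.71; limma adjusted p = 0.677). Gabra2, an alpha subunit, averaged 45.6 ± 9.79 FPKM in HFD and 35.9 ± 19.8 in CD (0.52), Gabra3 22.9 ± 10.8 in HFD and 15.2 ± 7.51 in CD (0.61), Gabrb2 330 ± 65.0 in HFD and 278 ± 95.5 in CD (0.32), and Gabrg3 3.55 ± 0.750 in HFD and 2.84 ± 0.641 in CD (0.27). The sixth, the GABA-B subunit Gabbr1, stands on 4 rows and is uncertain.

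The lowest values of Gabrb2, Gabra2, Gabrg1 and Gabrg3 lay in CD-F, whereas that of Gabra3 lay in CD-C, where it averaged 14.1 FPKM against 16.3 in CD-F. For Gabrb2, Gabra2 and Gabrg1 the lowest value was that of a single library, CD-F 8. The highest Gabrg1 values, 29.3 FPKM each, were those of HFD-F 3 and HFD-F 6. Gabrb2 ran from 190 to 434 FPKM in HFD-F and from 75.2 to 401 in CD-F, while within offspring code C it ran from 324 to 414 in HFD-C and from 280 to 408 in CD-C. Gabra2 had a median of 48.2 FPKM in HFD-F and 22.8 in CD-F, but 45.0 in HFD-C and 42.0 in CD-C. By mean Gabra2 was lower in HFD-C, at 41.8 against 45.6 in CD-C. The list median was 0.26 within F and 0.08 within C, and 0.11 with 13 higher and 3 lower members without CD-F 8. It was 0.07 with 11 higher and 5 lower members once the trend on transcript GC and length was taken out of each library. With that trend out, Gabrg1 differed by 0.25 and Gabrg3 by 0.16. CD-F was also the group whose libraries differed most in transcript GC, as given further on, and the part of that difference in these values was not tested beyond this.

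**Figure D2:**
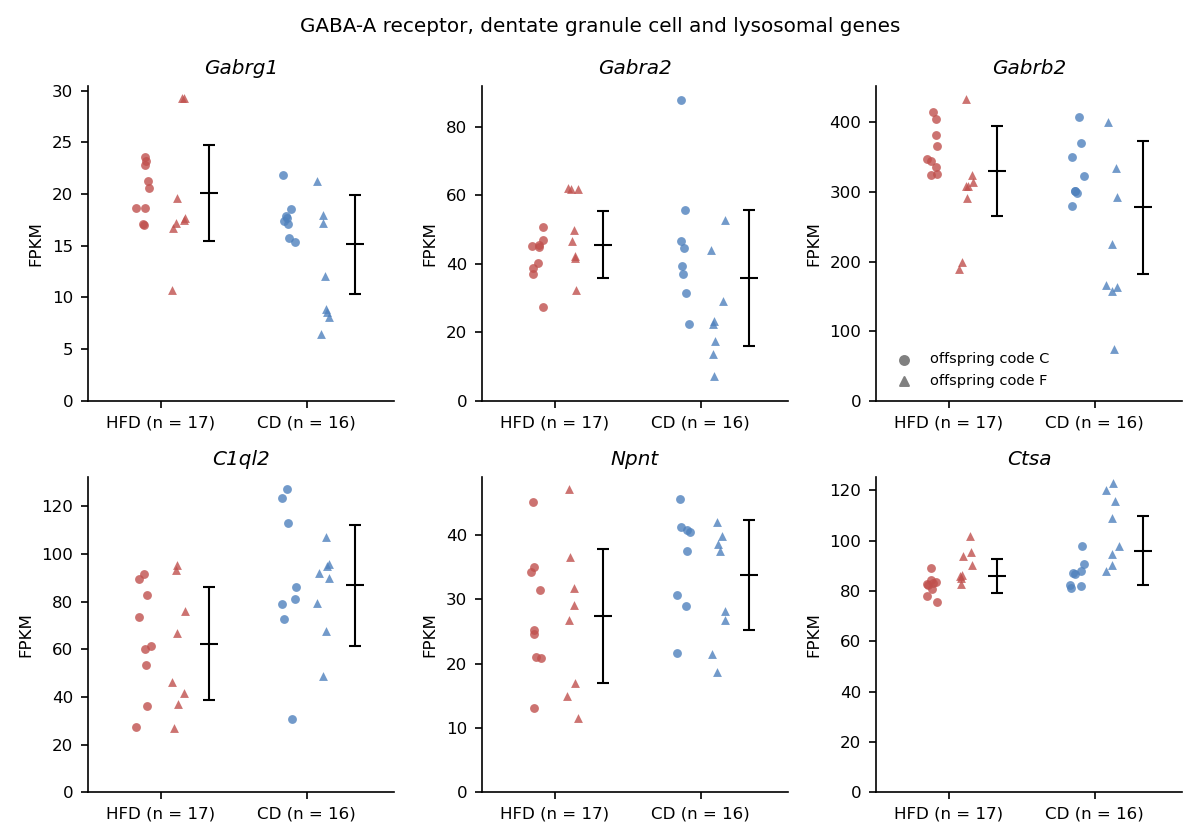
FPKM (vertical axes, from 0) of 3 GABA-A receptor subunit genes, 2 dentate granule cell genes and the lysosomal gene Ctsa, HFD on the left (n = 17) and CD on the right (n = 16); circles are offspring code C, triangles F, and bars the mean ± SD. The lowest value of each of these 3 GABA-A genes is a triangle of CD, the library CD-F 8, while C1ql2 and Npnt spread widely in both maternal codes.

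Excitatory synapse genes lay nearer to the background by median. Of 25 postsynaptic genes 17 had a difference above 0, with a median of 0.04, and 5 had an unadjusted p under 0.05, all higher in HFD, against 4.12% of all rows, with 0 passing in limma. They were the scaffold Homer1 (110 ± 35.2 FPKM in HFD, 87.1 ± 15.7 in CD), the AMPA receptor subunits Gria2 (453 ± 98.6 in HFD, 384 ± 123 in CD) and Gria3 (66.1 ± 13.1 in HFD, 54.1 ± 14.4 in CD), the NMDA receptor subunit Grin2a (73.9 ± 27.3 in HFD, 55.1 ± 28.4 in CD) and the metabotropic receptor Grm5 (26.6 ± 4.77 in HFD, 22.6 ± 6.65 in CD). In CD the lowest value of each of these 5 genes was that of CD-F 8, and the highest Homer1 value, 220 FPKM, was that of HFD-F 1. Gria2 and Grin2a did not keep an unadjusted p under 0.05 in limma in every fit that left out a single library. With the trend on GC and length removed, 2 of the 25 had an unadjusted p under 0.05, and the median was 0.03. Gria2 then differed by 0.07 (0.28 as deposited), Homer1 by 0.12 (0.30), Gria3 by 0.18 (0.31) and Grm5 by 0.16 (0.27). Camk2a, the most abundant member, averaged 41839 ± 7056 FPKM in HFD and 42341 ± 7338 in CD. Of 25 presynaptic genes 12 lay above 0 and 13 below, and Nrxn3, a presynaptic adhesion gene, differed by 0.23. The serotonin receptor gene Htr2a averaged 9.02 ± 2.77 FPKM in HFD and 6.46 ± 1.73 in CD (0.44), and the sodium channel gene Scn3a 44.2 ± 12.5 in HFD and 31.2 ± 17.5 in CD (0.69). Neither passed in limma (adjusted p = 0.677).

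Among the principal cells, markers of dentate granule cells were lower by median in HFD. Of 12 such genes 11 had a difference below 0, with a median of −0.15; 2 had an unadjusted p under 0.05 and 0 passed, against 3.22% of all rows lower. C1ql2, a synaptic organiser of mossy fibres, had 26.9, 61.2 and 95.5 FPKM as lowest, median and highest HFD values, against 30.7, 88.0 and 127 FPKM in CD (−0.51, 95% interval −0.89 to −0.12; limma adjusted p = 0.677). Npnt averaged 27.4 ± 10.5 FPKM in HFD and 33.8 ± 8.51 in CD (−0.36), and Prox1, the transcription factor that sets granule cell identity, 15.3 ± 7.82 in HFD and 19.4 ± 7.35 in CD (−0.36, unadjusted p = 0.135 in limma). Calb1, which CA1 cells and interneurons express as well, averaged 77.8 ± 12.4 in HFD and 77.8 ± 23.6 in CD. In bulk tissue fewer cells of a type, or less of a subregion in the dissected piece, and less RNA per cell cannot be told apart.

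The other neuronal lists given here had medians from 0.00 to 0.20. The median of 12 CA1 genes was 0.00, that of 12 CA2 and CA3 genes 0.07, that of 13 interneuron genes 0.10 and that of 10 striatal genes 0.20. In the striatal list the sum ran from 69.6 to 451 FPKM in HFD and from 60.7 to 187 in CD, and 0 members had an unadjusted p under 0.05. The row of Gad2, which makes GABA, also names a microRNA gene and was chosen after its values were seen. It stood at 134 ± 31.7 FPKM in HFD and 101 ± 25.1 in CD (0.43). Its highest values were 228 FPKM in HFD-F 3 and 185 in HFD-F 6, and its medians 123 in HFD and 101 in CD. Gad1, the other GABA-making enzyme, stood at 70.7 ± 8.94 in HFD and 65.8 ± 9.75 in CD (0.11).

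Glial and vascular lists had small medians apart from myelin. The 13 oligodendrocyte and myelin genes had a median of −0.17, with 10 below 0 and 0 at an unadjusted p under 0.05 in limma. Opalin, a myelin membrane protein gene, averaged 90.2 ± 30.5 FPKM in HFD and 119 ± 55.1 in CD, and Mbp, the myelin basic protein gene, 3821 ± 1132 in HFD and 4362 ± 1249 in CD. By offspring code the list median was −0.37 within F and 0.01 within C. Oligodendrocyte precursors (median 0.04) held 2 of 12 genes at an unadjusted p under 0.05, both higher in HFD, against 4.12% of all rows higher. They were Lhfpl3 (36.8 ± 7.77 FPKM in HFD, 29.6 ± 5.39 in CD) and Vcan (8.05 ± 1.08 in HFD, 6.79 ± 1.79 in CD). Astrocyte and microglia lists had medians of 0.04 each, and endothelial genes −0.03.

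**Figure D3:**
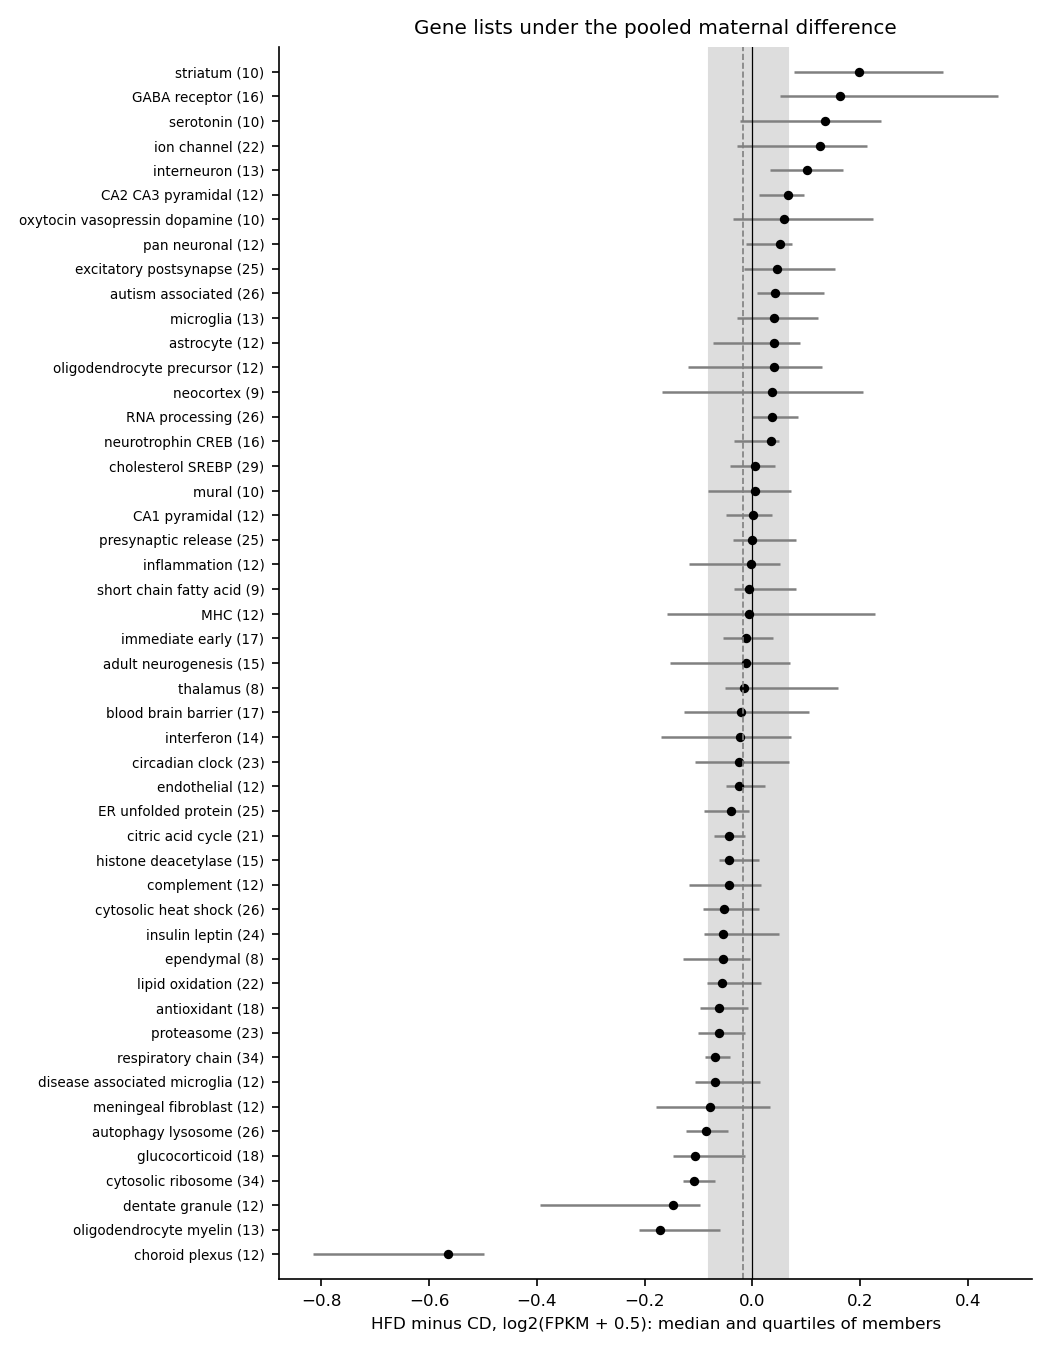
Median (dots) and quartiles (lines) of the log2 difference HFD minus CD over the tested members of each list with at least 5 of them, the number in brackets, apart from the liver list; the dashed line and the grey band are the median and quartiles of all 16035 rows. GABA receptor genes have a median of 0.16, dentate granule genes −0.15 and choroid plexus genes −0.57, and 0 members of any list passed.

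Inflammatory pathways showed little, while glucocorticoid response genes had a median below 0. Of 12 inflammation genes 6 lay above 0 and 6 below, with Tlr4, the endotoxin receptor (24.9 ± 3.86 FPKM in HFD, 20.9 ± 6.97 in CD), and Rela, an NF-kB subunit (145 ± 19.3 in HFD, 161 ± 26.0 in CD), at an unadjusted p under 0.05 in limma, beside 7.35% of all rows. The 12 complement genes had a median of −0.04 and the 14 interferon genes −0.02, each with 0 members at an unadjusted p under 0.05. Of 18 glucocorticoid response genes 14 lay below 0 (median −0.11). Among them 2 had an unadjusted p under 0.05 in limma, both lower in HFD, against 3.22% of all rows lower, and 0 passed. The receptor co-chaperone Fkbp5, on 2 rows, averaged 19.6 ± 4.89 FPKM in HFD and 22.4 ± 4.73 in CD (−0.22), and Hsd11b1, which regenerates active glucocorticoid, 24.1 ± 5.44 in HFD and 28.5 ± 6.58 in CD (−0.24). Neither passed.

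Metabolic lists leaned lower by small amounts. All 34 cytosolic ribosomal protein genes had a difference below 0, with a median of −0.11, yet 0 had an unadjusted p under 0.05 in limma; Rplp0, with the smallest p, averaged 2675 ± 506 FPKM in HFD and 3093 ± 1063 in CD. Without the library CD-F 8 their median was −0.02, and 25 of 34 lay below 0. Of 34 respiratory chain genes 32 lay below 0 (median −0.07), and without CD-F 8 19 did (−0.01). Both lists lay above 0 in XX libraries alone, at 0.05 and 0.06, and below 0 in XY libraries alone, at −0.25 and −0.19.

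Lysosomal genes had a median below 0 in both offspring codes, at −0.05 in C and −0.14 in F. Of 26 autophagy and lysosome genes 24 lay below 0 (median −0.09), 3 with an unadjusted p under 0.05, against 3.22% of all rows lower, and 0 passing. With the trend on GC and length removed the median was −0.06 and 2 had an unadjusted p under 0.05; Grn then differed by −0.06. Ctsa, a lysosomal carboxypeptidase, had 75.8, 84.3 and 102 FPKM as lowest, median and highest HFD values, against 81.4, 90.6 and 123 FPKM in CD (−0.14, 95% interval −0.24 to −0.05), and Grn, the progranulin gene, averaged 31.2 ± 2.01 in HFD and 34.2 ± 3.65 in CD (−0.12; limma adjusted p = 0.677). In cholesterol synthesis, Hmgcs1 averaged 499 ± 56.1 FPKM in HFD and 445 ± 61.5 in CD (0.17), while the 29 genes of its list had a median of 0.00. The citric acid cycle enzyme Dlst averaged 222 ± 14.4 in HFD and 241 ± 20.8 in CD (−0.11), and the mitochondrial carrier Ucp2 49.5 ± 10.5 in HFD and 64.7 ± 25.8 in CD (−0.34).

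RNA of neighbouring or foreign tissue differed between libraries of both codes. All 12 tested choroid plexus genes had a difference below 0 (median −0.57), with 0 at an unadjusted p under 0.05. Ttr, the transthyretin made by the choroid plexus, ran from 10.1 to 10510 FPKM in HFD and from 24.5 to 18780 in CD, with medians of 222 in HFD and 816 in CD. The list median was −1.13 in XX libraries and −0.01 in XY libraries fitted alone. Liver products were present in 4 libraries, all of CD-C and 3 of them XX. In those 4, Alb (albumin) ran from 24.3 to 50.1 FPKM, and in the other 29 libraries it reached at most 0.145. The 8 genes tested of the liver list include Ttr, which was high in libraries without Alb as well. Of the 8, 4 were listed at 0 in every HFD library. An unadjusted p under 0.05 with lower values in HFD was seen for 6, not including Ttr, against 3.22% of all rows lower. Without the 4 CD-C libraries, 0 of the 8 had an unadjusted p under 0.05. Outside those 4, Ahsg reached at most 0.945 FPKM and Serpina3k 0. Alb, Ahsg and Serpina3k thus met the mean of 0.5 FPKM only through CD-C, so their lower values in HFD were fixed by the filter.

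Set apart by offspring code, the maternal difference was called for no gene in C or in F. HFD-C against CD-C gave 0 genes in limma and 403 rows at an unadjusted p under 0.05 (2.51%), and HFD-F against CD-F gave 0 and 1401 (8.74%). Leaving out libraries changed these counts. Within F, 4 genes passed without CD-F 6 (Luzp2, Ddx10 and Gnpda2 higher and Pigz lower in HFD-F), 1 without HFD-F 8 (Calcrl, higher) and 40 without title prefix CD2.5X, 34 higher and 6 lower, and 1 without prefix CD2.6 (Zdhhc8). Among those 40 were Gabra2 (log2 1.64, limma adjusted p = 0.00953), Gabrg1 (0.87, 0.0492), Igf1 (0.77, 0.0403) and the serotonin receptor gene Htr1b (0.94, 0.00953). That fit kept CD-F 1, CD-F 2, CD-F 6, CD-F 7 and CD-F 8, with CD-F 7 as the only XX library of CD-F. CD-F 1, CD-F 2 and CD-F 8 had the highest slopes on transcript GC (0.313, 0.265 and 0.468), a measure described further on. The part of GC in these calls was not tested. The rows at an unadjusted p under 0.05 in F numbered 925 without CD-F 1, 2118 without CD-F 6, 2235 without HFD-F 8, 669 without prefix CD1.5, 794 without HFD2.2 and 2430 without CD2.5X. Within C, 5 genes passed without title prefix CD1.1, all lower in HFD-C: the gluconeogenic enzyme gene Pck1 and the liver-type genes Serpina1c, Serpina1d, Serpina3k and Mup13 (limma adjusted p = 0.0457 each). That fit kept CD-C 5, CD-C 7 and CD-C 8, which held Alb. Serpina3k was at 0 in all libraries without Alb, so its direction was fixed by the libraries with it. Without prefix CD2.5 Cacna1i passed in C (0.89, limma adjusted p = 0.0272), and in XX libraries alone Asun did. The rows at an unadjusted p under 0.05 in C numbered 647 without prefix HFD1.5. These 2 comparisons share no library, although 3 HFD title prefixes enter both. Over all 16035 rows 60.2% had the same sign in both, and the differences correlated at 0.13 (Pearson) and 0.212 (Spearman) across genes, which are not independent and share the dependence on transcript GC described further on. All 20 genes nearest to passing had the same sign in both codes, but they were picked on the pooled difference, so this is no test of it. Calcrl differed by 0.10 in C and 0.70 in F, Igf1 by 0.18 and 0.59, and Grip1 by 0.42 and 0.25.

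**Figure D4:**
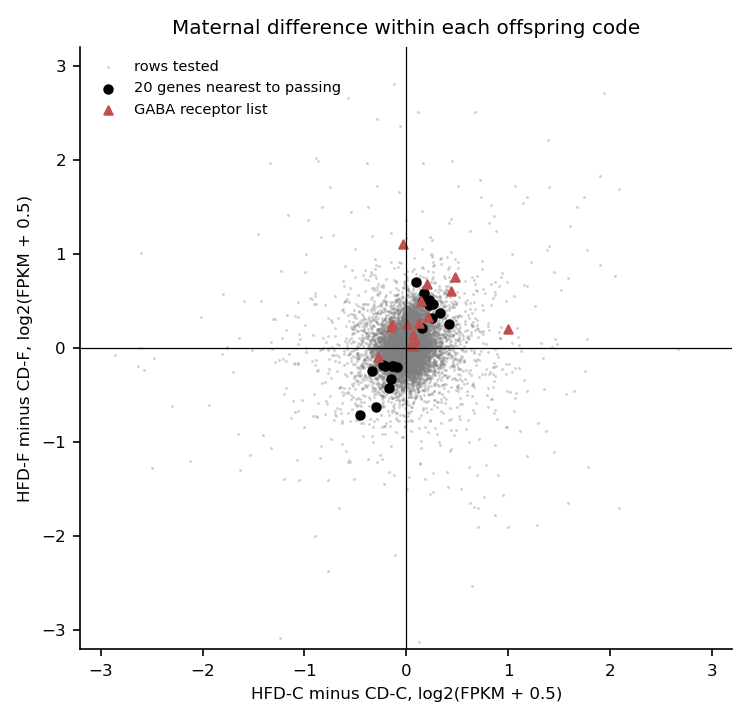
Log2 difference HFD-C minus CD-C (horizontal) against HFD-F minus CD-F (vertical) for each row tested, with the 20 genes nearest to passing in the pooled comparison as black dots and the GABA receptor list as red triangles; 3 rows lie beyond the axes. The cloud is nearly round, the black dots were picked on the pooled difference and so lie in 2 quadrants, and Gabra2 is the triangle with the highest value in F.

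The test of whether the maternal difference depends on the offspring code gave 0 genes in limma, with 528 rows (3.29%) at an unadjusted p under 0.05 and a smallest adjusted p of 1. The genes nearest to it had opposite differences in the 2 codes. Rad17, a DNA damage checkpoint gene, averaged 14.2 FPKM in HFD-C against 16.2 in CD-C, and 13.1 in HFD-F against 11.1 in CD-F (interaction 0.41, SE 0.10). Mdm4, a p53 inhibitor, averaged 37.2 in HFD-C against 44.5 in CD-C, and 38.1 in HFD-F against 24.8 in CD-F (0.94, SE 0.28). Wdfy1, Pnrc2 and Egln3 also had lower values in HFD-C and higher ones in HFD-F. In the other direction, the T-type calcium channel gene Cacna1i averaged 11.9 in HFD-C against 7.58 in CD-C, and 11.7 in HFD-F against 14.1 in CD-F (−0.93, SE 0.26), and the axonal adhesion gene Cntn2 45.4 in HFD-C against 25.5 in CD-C, and 36.1 in HFD-F against 56.4 in CD-F (−1.55, SE 0.47). In XY libraries alone Mdm4 passed (interaction 1.82, limma adjusted p = 0.00201), while in XX libraries alone its interaction was −0.0047. The rows at an unadjusted p under 0.05 numbered 815 without CD-F 8, 1000 without title prefix CD2.5X and 1153 without prefix CD2.6.

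By mark, XX libraries gave 0 genes and 507 rows at an unadjusted p under 0.05 (3.16%), 136 higher (0.848%) and 371 lower (2.31%) in HFD, and XY libraries 0 genes and 2178 rows (13.6%), 1254 higher (7.82%) and 924 lower (5.76%). The smallest adjusted p was 0.998 in XX and 0.305 in XY with limma. The test of the difference between the marks gave 0 genes, with 1112 rows at an unadjusted p under 0.05 (6.93%), or 635 without HFD-F 8 and 687 without CD-F 8, so a dependence on the mark was not shown for any gene. The differences in XX and in XY had the same sign in 46.4% of rows. Because the XX and XY libraries of HFD-F share no title prefix, a difference between marks cannot be told apart from one between prefixes there. The same holds for every value given above for XX or XY libraries alone. Igsf10 differed by 0.07 in XX and 0.59 in XY, whereas Cpsf3l differed by −0.19 and −0.21 and Rgs7 by −0.29 in both.

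The pooled difference followed transcript composition across genes, falling with GC content (Spearman −0.437) and increasing with length (0.279) over 15093 rows (94.1%). The slope of each library on transcript GC averaged −0.044 ± 0.105 log2 units per 10 percentage points in HFD and 0.047 ± 0.176 in CD (SD, n = 17 and 16), a difference of −0.0917 (two-sided permutation p = 0.0752; 0.197 adjusted over 10 such tests). In HFD-C the slopes ran from −0.182 to −0.042 and in CD-C from −0.119 to −0.020 (exact permutation p = 0.021, 0.197 adjusted). In HFD-F they ran from −0.089 to 0.184 and in CD-F from −0.080 to 0.468 (exact permutation p = 0.121, 0.202 adjusted). With the trend on GC and length removed from each library, limma called 0 rows and 801 of 15093 had an unadjusted p under 0.05. All 20 genes nearest to passing kept their sign, and 16 of them had a difference nearer to 0. These genes were picked on the deposited values, so neither count is a test.

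Luzp2, with a transcript of 38.2% GC, differed by 0.37 in the deposited values and by 0.22 with the trend removed. Igf1 differed by 0.38 and 0.20, Dlx6os1 by 0.35 and 0.21, Calcrl by 0.39 and 0.24, Chpt1 by 0.32 and 0.17, Wdr44 by 0.18 and 0.08, Snx15 by −0.14 and −0.07, and Cpsf3l by −0.20 and −0.14. Among genes named from the lists and the panel, Tlr4 differed by 0.32 and 0.20, Vcan by 0.27 and 0.15, Rela by −0.13 and −0.07, Rplp0 by −0.18 and −0.11 and Lepr by −0.15 and −0.25. Other genes held their size or differed more: Egfl6 stood at 0.36 both ways, Grip1 at 0.34 and 0.32, Rgs7 at −0.29 and −0.44, Arl5b at −0.58 and −0.73 and Mms19 at −0.16 and −0.19. The dentate granule list had a median of −0.24 with the trend removed, and all 12 of its genes then lay below 0. Beyond removing it, the part of the trend in these differences was not tested.

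**Figure D5:**
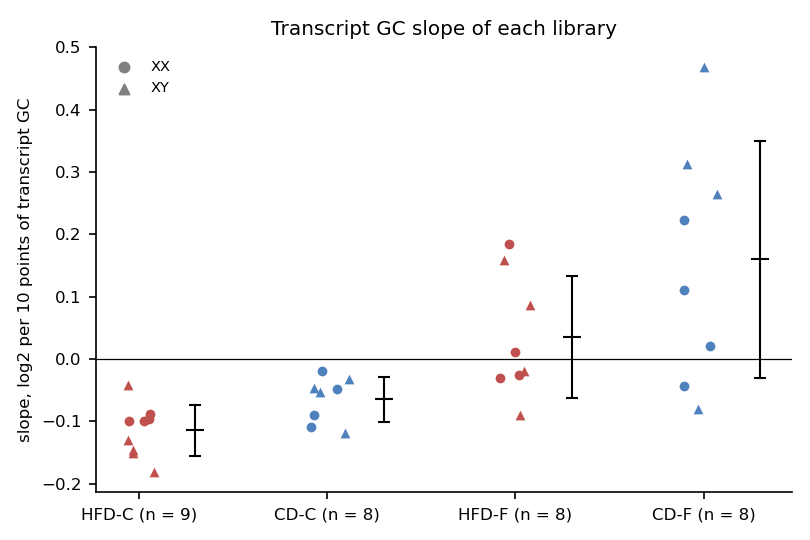
Slope of log2 expression on transcript GC for each library (vertical axis, log2 units per 10 percentage points of GC, relative to the mean of all libraries), HFD left of CD within each offspring code; circles are XX, triangles XY, bars the mean ± SD. The CD-F libraries spread most, from −0.080 to 0.468.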

How the data were processed

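Hippocampal RNA was sequenced by a BGI-500 workflow, per the labels' protocols. The authors deposited FPKM values in a single table of 42521 rows. GRCm38.p6, HISAT2, Trimmomatic 0.38 and StringTie 1.3.4d come from the submitters' processing notes; for settings, strand and annotation the sources used here give nothing. Columns summed to between 1245489 and 1340551 FPKM. Depth is unknown, so no counting interval can be given. Of the tested rows 1107 name several genes and 1351 carry a symbol found on several rows; these are uncertain.

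A linear model in limma 3.58.1 under R 4.3.3 (lmFit, eBayes with trend) took log2(FPKM + 0.5), a scale that understates changes of low genes, for the 16035 rows averaging 0.5 FPKM or more in the 33 libraries. Its terms were the sex mark, offspring code and maternal code. All p-values are two-sided, adjusted by Benjamini-Hochberg over all rows, with a threshold of 0.05. The code was tested on simulated data. P-values measure the spread between mice. Permutation tests used scipy under Python 3.11.15.

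Named genes were the 10 with the smallest p in each direction, the 5 in each direction for the interaction, up to 2 genes per list and 33 panel genes, at a mean of at least 1 FPKM for genes on a single row, without predicted, pseudogene or Y-linked names; other list members are given as examples, chosen after their values were seen. The comparison, members and lists were chosen with earlier results of these data known. Results were recomputed under 67 other settings, and under 2 more chosen after seeing the data.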

Additional observations from a re-analysis of the deposited data

Results flagged for a closer look

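Within the groups HFD-C, HFD-F, CD-C and CD-F, 8 of 120 gene-by-group sets looked at over 30 genes had a library far from the others by Dixon's gap on the log2 scale; chance gives about 1 in 20. None was tested further. Calcrl was low in HFD-C 1 at 11.9 FPKM (next 15.7) and in HFD-F 8 at 10.7 (next 17). Wdfy1 was low in HFD-C 4 at 4.71 (next 12.9) and in CD-F 8 at 5.89 (next 10.6). Wrap53 was high in HFD-F 4 at 1.69 (next 1.38), and Cacna1i was high in CD-C 7 at 14.9 (next 7.7). Pms1 was low in CD-F 8 at 0.487 (next 1.33), and Rgs7 was low in CD-C 8 at 33 (next 40.6).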

How the results depend on the processing

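The pooled comparison gave 0 genes in limma under all 69 alternatives, with 535 to 1943 rows at an unadjusted p under 0.05 and a smallest adjusted p of 0.17; leaving out each library in turn gave 0 genes and 858 to 1943 rows. The 20 genes nearest to passing kept their sign in 1380 of 1380 values. They were picked on the pooled difference in these libraries, most of which every alternative shares, so the kept signs are no test of the differences. For all 150 genes named for the maternal code, 242 of 10348 values changed sign, and for 50 list medians 329 of 3450 did.

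Counts within subsets were less stable, and the cause was not tested. The interaction gave 1 gene, Mdm4, in XY libraries alone (adjusted p = 0.00201 in limma). Within offspring code C there was 1 gene, Asun, in XX libraries alone, 5 (Pck1, Serpina1c, Serpina1d, Serpina3k and Mup13, lower in HFD-C) without title prefix CD1.1 and 1, Cacna1i, without prefix CD2.5. The fit without CD1.1 kept CD-C 5, CD-C 7 and CD-C 8, which held liver products. Within F there was 1, Calcrl, with array weights, 1, Zdhhc8, without prefix CD2.6, and 40 (34 higher and 6 lower in HFD-F, Htr1b and Gabra2 with the smallest p) without prefix CD2.5X, which holds 3 CD-F libraries. Leaving out single libraries gave 0 to 4 in F, 4 without CD-F 6 and 1 without HFD-F 8. The marks gave 9 genes, and 18 with all 49 libraries.

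No paired analysis was possible because every title prefix lies within a maternal code and the labels give no number shared by HFD and CD animals. The consensus correlation within prefixes was −0.00288. Unknown depth limits what can be said of low genes.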
